A study of Mus musculus with 67 samples.

Results

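Cell cycle and DNA replication genes were examined in mouse cerebral cortex, as 70 genes of the 4209 that had a probe with exactly 1 gene symbol on the array. The members were chosen by symbol alone, from the Cdc, Cdk, Cdkn, Mcm, Orc, Anapc, Cenp, Pold, Pole, Rfc and Bub families and the A, B and D cyclins, and each gene was read from the probe with its highest mean over all arrays. They comprised 11 genes of origin licensing and the helicase, 6 of the polymerases and their clamp loader, 4 cyclins, 11 kinases and kinase partners, 3 inhibitors, 9 subunits of the anaphase-promoting complex (APC/C), 16 centromere and spindle checkpoint genes, and 10 others with a Cdc symbol. The rule also covered the E cyclins, the Pola genes, Mki67, Pcna and Cdk1, but none of these is among the 70 members, so they were not analysed here.

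RNA from the cortex of 67 C57BL/6 mice, male and female, was hybridised to 67 filter arrays of 8448 probes. Mice on caloric restriction (CR) had regular feed when young and a fortified ration that was then cut in steps, and they were taken at 6 months (9 arrays), 16 months (10 arrays) and 24 months (8 arrays). Mice fed ad libitum (AL) had unrestricted regular feed. They were taken at 17-21 days (5 arrays), 33-44 days (5 arrays), and 6, 16 and 24 months (10 arrays each). The 3 CR males of 24 months were all 673 days old. The CR females of 24 months were 703 to 743 days old, and the AL males 714 to 743. The part of this age gap in comparisons with the 24 month CR mice was not tested. A value is a z-score, the number of standard deviations by which a probe lay above or below the mean of its own array, so differences are in z units and give no fold change. The arrays of each group are taken as separate animals. A p-value sets a difference against the spread between arrays within groups, estimated over all groups together. The near-identical arrays of the 16 month AL mice, described below, also count as separate animals in these p-values.

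A cell that divides licenses its origins of replication in G1, when the origin recognition complex (Orc1 to Orc6) loads the Mcm helicase, and fires them in S phase, when the polymerases and the clamp loader copy the DNA. Cyclins switch the cyclin-dependent kinases on, Cdkn proteins hold them in check, and the APC/C ends mitosis by marking cyclins for destruction once the spindle checkpoint, which reads the centromeres, is satisfied. Cortical neurons have left the cell cycle, and the dividing cells of the cortex after weaning are mostly glial progenitors, so several of these gene families are best known in this tissue for other work: Cdk5 in neurons, Cdk9 and Cdk12 in transcription, Cdc42 in cell shape, and the APC/C in neurons that no longer divide.

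Many genes of replication and mitosis carry E2F, CCAAT or CHR elements before their start, and the letters of these elements were searched on both strands in RefSeq promoters (assembly GRCm38.p6), which were found for 60 of the 70 members. The E2F letters (TTTCCCGC, TTTCGCGC, TTTGCCGC or TTTGGCGC) were in 11 of the 60 windows, 18.3%, against 2.32% of the 27025 promoters of all genes. CCAAT was in 31 windows, 51.7% against 37.9%, and the CHR letters TTTGAA were in 13, 21.7% against 18.1%. A match is a run of letters, not a shown site. The 250 bases before the start of 5 members are printed as examples, with every match in capitals: Mcm6, chr1:128359706-128359955, minus strand. Cdk2, chr10:128705052-128705301, minus strand. Cenpl, chr1:161070517-161070766, plus strand. Mcm2, chr6:88898781-88899030, minus strand. Ccnb2, chr9:70421555-70421804, minus strand.
Mcm6: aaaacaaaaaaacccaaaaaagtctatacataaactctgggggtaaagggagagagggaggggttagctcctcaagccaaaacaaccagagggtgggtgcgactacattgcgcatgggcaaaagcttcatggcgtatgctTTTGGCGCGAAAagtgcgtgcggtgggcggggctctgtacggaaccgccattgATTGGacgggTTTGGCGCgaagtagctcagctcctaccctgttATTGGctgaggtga
Cdk2: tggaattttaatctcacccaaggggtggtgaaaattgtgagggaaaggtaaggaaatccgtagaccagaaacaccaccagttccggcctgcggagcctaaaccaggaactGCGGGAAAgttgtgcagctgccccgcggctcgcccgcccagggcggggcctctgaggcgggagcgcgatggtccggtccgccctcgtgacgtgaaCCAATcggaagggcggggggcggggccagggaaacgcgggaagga
Cenpl: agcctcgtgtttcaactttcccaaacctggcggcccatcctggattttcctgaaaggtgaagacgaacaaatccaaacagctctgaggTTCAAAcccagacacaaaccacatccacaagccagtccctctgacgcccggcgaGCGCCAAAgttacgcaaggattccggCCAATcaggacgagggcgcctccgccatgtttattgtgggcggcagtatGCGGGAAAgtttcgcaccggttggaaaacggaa
Mcm2: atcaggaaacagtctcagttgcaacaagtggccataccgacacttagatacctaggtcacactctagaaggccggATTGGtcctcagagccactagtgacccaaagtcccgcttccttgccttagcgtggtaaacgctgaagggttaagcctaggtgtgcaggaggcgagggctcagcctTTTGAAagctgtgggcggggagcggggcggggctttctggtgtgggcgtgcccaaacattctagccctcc
Ccnb2: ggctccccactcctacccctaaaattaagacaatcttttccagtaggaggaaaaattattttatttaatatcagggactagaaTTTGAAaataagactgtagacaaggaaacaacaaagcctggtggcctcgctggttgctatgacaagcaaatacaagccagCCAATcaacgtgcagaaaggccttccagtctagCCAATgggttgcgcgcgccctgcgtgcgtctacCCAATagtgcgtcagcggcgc
The Mcm6 stretch held 3 matches to the E2F letters, 2 of which overlap, and 2 to CCAAT, Cenpl held all 3 kinds of letters, and Ccnb2, a mitotic cyclin, held 3 matches to CCAAT and 1 to TTTGAA. Mcm2 and Ccnb2 held no E2F letters in the printed stretch. A match on the opposite strand is printed as its complement read backwards.

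Of the 70 members, 42 had a mean z above 0 over all arrays and 28 below, which is 60% above 0 against 49.3% of all probes. For the 11 members with several probes the highest was used, which can only raise the members' share. The shares are therefore not like for like, and no conclusion is drawn from them. The members with the highest mean z were Cdkn3 (a phosphatase of the Cdk kinases, 2.35), Ccnd2 (a G1 cyclin, 2.30), Mcm4 (a helicase subunit, 2.20), Cenpb (a DNA-binding protein of the centromere, 1.96) and Anapc1 (an APC/C subunit, 1.57). The lowest were Mcm8 (a helicase-like protein of recombination repair, -1.83), Cdk6 (a partner of the D cyclins, -1.69), Orc1 (-1.68), Cdc16 (an APC/C subunit, -1.45) and Cdc42bpg (a kinase that binds Cdc42, -1.32). Such a mean places a probe in its own array and also depends on the probe, so it is no ranking of transcripts. Different probes of 1 gene bore this out: the 5 probes of Ccnd2 had mean z from -1.16 to 2.30, and the 3 of Anapc1 from -1.57 to 1.57.

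The members had similar means in every age and diet group. The mean z over the 70 genes was 0.112 ± 0.0391 at 17-21 days (SD, n = 5) and 0.0982 ± 0.0425 at 33-44 days (n = 5). At 6 months it was 0.0955 ± 0.0156 under CR (n = 9) and 0.0908 ± 0.0193 under AL (n = 10). At 16 months it was 0.0905 ± 0.0252 under CR (n = 10) and 0.104 ± 0.0325 under AL (n = 9), and at 24 months 0.110 ± 0.0421 under CR (n = 8) and 0.0896 ± 0.0225 under AL (n = 10). The ranges of single arrays overlapped between all 8 groups. The median SD of a member within groups was 0.211 z, against 0.210 for all probes, from 0.11 for Cdkn3 to 0.763 for Mcm8. The 8 group means of a gene spanned a range wider than its own within-group SD in 36 members, 51.4%, against 54.8% of all probes. Both near-identical arrays of the 16 month AL mice, described below, are counted in these spans and SDs. In bulk tissue, fewer cells of a type and less RNA per cell cannot be told apart.

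**Figure D1:**
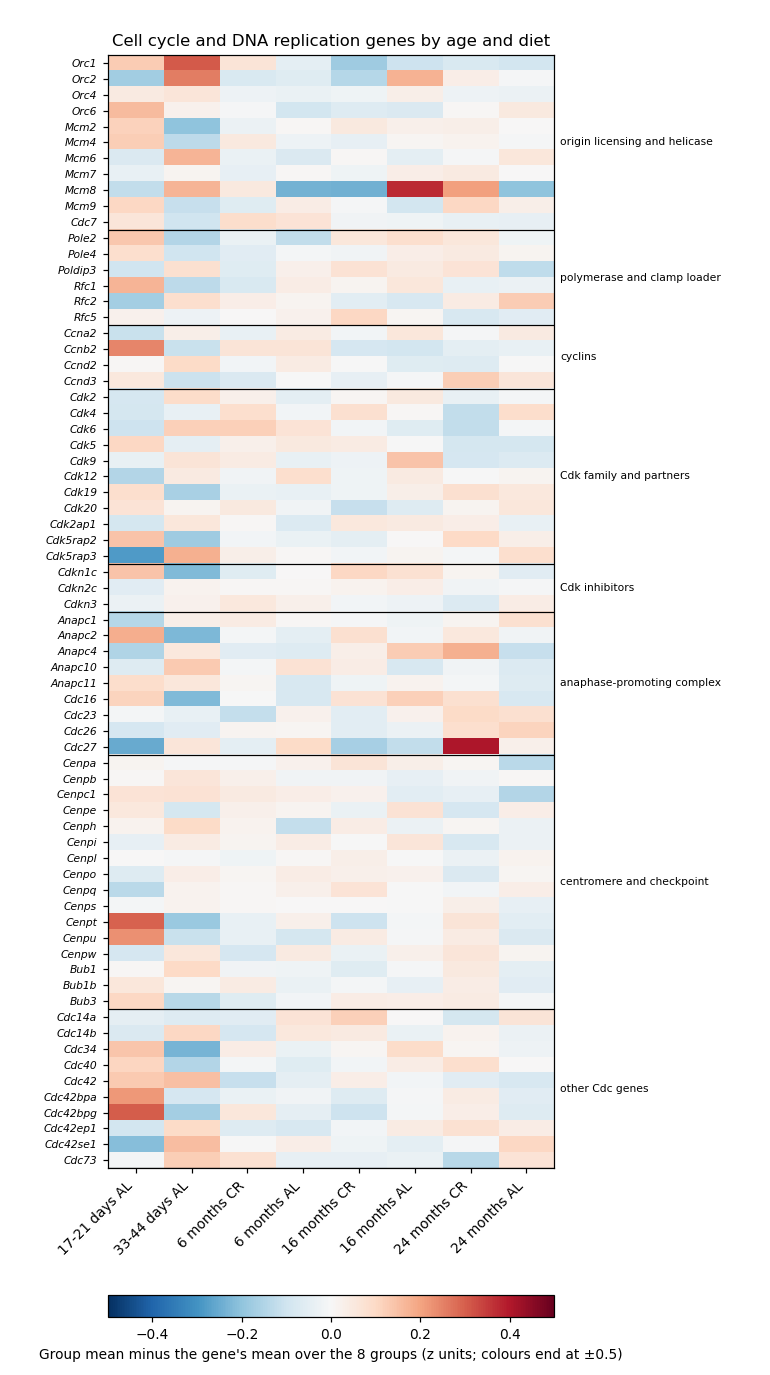
Each row is 1 of the 70 genes, ordered by role, and each column 1 of the 8 age and diet groups; colour is the gene's group mean minus its mean over the 8 groups, in z units, with the scale ending at -0.5 and 0.5. Most cells are pale, and the strongest colours are single genes such as Cdc27, Mcm8, Orc1 and Cenpt, whose group means span 0.656, 0.612, 0.483 and 0.482 z.

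The arrays differed in ways the groups do not explain. The 22 arrays with a number of 46 or above differed from the 45 with lower numbers (a split found in the values, called a run of arrays here). Each age and diet group lay in both runs except the 17-21 day mice, whose 5 arrays all had lower numbers, and 2 of the 5 arrays at 33-44 days were in the later run. The median difference between the runs, whatever its sign, was 0.272 z for the members and 0.224 z for all probes, and with the group as a term 61 members, 87.1%, passed limma at adjusted p 0.05, against 77.9% of all probes (31 members higher in the later run and 30 lower). Ccnb2 was the member that differed most: it lay from -1.72 to -1.12 (median -1.59) on the arrays numbered 46 or above and from -1.06 to -0.47 (median -0.67) on the others, with no overlap. Cdk5rap3, a partner of a Cdk5 activator, went the other way, from -0.36 to 0.22 (median -0.085) on the arrays numbered 46 or above and from -0.89 to -0.41 (median -0.70) on the others. The ranges of the runs did not overlap in 4 of the 70 members, 5.71%, against 6.16% of all probes.

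Spots near each other on a filter also moved together: a gap of 22 spots gave a median correlation of 0.439, and subtracting the mean of up to 24 neighbouring spots removed 35.5% of the variance within a run. Finally, 1 male and 1 female array of the 16 month AL mice (replicate 2 of each) agreed at r = 0.99975, against 0.989 for the next closest pair of the series, and held 4312 identical values, 39 of them among the 70 members. They stayed in the fits as 2 arrays, and were averaged and counted once in group means and ranges, so the 16 month AL group has n = 9 there; results that rest on them are given with and without them. As a check of the tissue, few cell type markers were on this filter of the array set: 1 of 12 neuron markers (Nefl), 3 of 8 astrocyte markers (Clu, Gja1, Slc1a3) and 3 of 8 microglia markers (C1qa, C1qb, C1qc) were measured, of which 1, 2 and 2 had a mean z above 0. For progenitors, 0 of 5 oligodendrocyte progenitor markers and 2 of 6 markers of neural progenitors and new neurons (Sox11, Sox4; 1 above 0) were measured, and 0 of 8 oligodendrocyte and 0 of 7 endothelial markers, so most of these cells could not be checked.

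The question of each comparison was which transcripts differ with age, diet or sex. No member passed an adjusted p of 0.05 in any of the 14 comparisons (limma, Benjamini-Hochberg over 8448 probes, two-sided). Over all probes the share that passed was 0% in 13 of them and 0.0947% (8 probes) between 33-44 and 17-21 days. The intervals show how large a difference remains possible. For CR against AL over the 3 adult ages, the 95% interval lay inside -0.25 to 0.25 z in 64 members and inside -0.5 to 0.5 z in all 70. For 24 against 16 months AL it lay inside -0.25 to 0.25 z in 33 members and inside -0.5 to 0.5 z in 68, and for 33-44 against 17-21 days inside these limits in 6 and 44.

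The juvenile step, 33-44 against 17-21 days AL, held the smallest p-values. Of the 70 members, 38 had a positive difference and 32 a negative one (median 0.024 z, against 0.0033 for all probes), and 13 had an unadjusted p under 0.05, 3 positive and 10 negative; that is 18.6% of the members, against 14% of all probes (4.76% positive, 9.28% negative). The inhibitor Cdkn1c, a gene whose p57 protein holds cells in G1, stood first, with the helicase subunit Mcm2, the ubiquitin-conjugating enzyme Cdc34, the APC/C subunit Cdc16 and the centromere protein Cenpu after it.

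Cdkn1c had z-scores of 0.88, 0.93, 0.95, 0.54 and 0.68 at 33-44 days, against 1.24, 0.99, 1.17, 1.28 and 1.14 at 17-21 days. All 5 arrays at 33-44 days lay below all 5 at 17-21 days, the only member whose groups did not overlap here (0.947% of all probes did not), and the lowest values, 0.54 and 0.68, were on the 2 arrays numbered 46 or above. The means of the fit were 0.80 and 1.16, a difference of -0.36 z (SE 0.091, 95% interval -0.55 to -0.18, limma adjusted p = 0.0605). With the run as a block the difference was -0.33 at adjusted p = 0.0485, where 0.829% of all probes passed; among the arrays with lower numbers alone it was -0.24, and after the neighbouring spots were subtracted it was -0.074.

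Mcm2 read 0.16, 0.20, 0.15, -0.19 and -0.34 at 33-44 days, against 0.16, 0.14, 0.38, 0.45 and 0.31 at 17-21 days. The groups overlapped, and the negative values were again those of the 2 arrays numbered 46 or above. The difference was -0.32 z (SE 0.094, limma adjusted p = 0.128), -0.13 among the arrays with lower numbers and -0.078 after neighbour subtraction. Without female replicate 2 of the 33-44 day mice it was -0.19. Mcm2 belongs to the helicase ring with Mcm4, Mcm6 and Mcm7, of which Mcm4 read 2.32, 2.28, 2.30, 1.79 and 1.70 at 33-44 days, against 2.36, 2.23, 2.35, 2.31 and 2.33 at 17-21 days. Its difference was -0.26 z, -0.0019 after neighbour subtraction, and -0.11 without female replicate 2 of the 33-44 day mice. Mcm6 ran the other way, at -0.04, 0.12, 0.05, 0.70 and 0.66 at 33-44 days, against 0.42, 0.01, -0.03, -0.12 and 0.07 at 17-21 days, with its high values on the same 2 arrays (difference 0.25 z, 95% interval -0.15 to 0.65, limma adjusted p = 0.499). Among the arrays with lower numbers it was at -0.017 z, and without female replicate 2 of the 33-44 day mice at 0.093 z. Mcm7 had a difference of 0.051 z, with an interval of -0.17 to 0.27.

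Cdc34 read 0.13, 0.49, 0.32, -0.34 and -0.16 at 33-44 days, against 0.40, 0.27, 0.55, 0.75 and 0.34 at 17-21 days, with overlap (difference -0.37 z, SE 0.131, limma adjusted p = 0.210). Cdc16 read -1.65, -1.67, -1.38, -1.80 and -1.91 at 33-44 days, against -1.42, -1.43, -1.27, -1.20 and -1.42 at 17-21 days. Only the -1.38 of 1 female at 33-44 days reached into the range of the younger mice, and the difference was -0.33 z (SE 0.123, limma adjusted p = 0.249). The 2 lowest values of each gene were on the arrays numbered 46 or above. Over all 67 arrays the later run differed from the earlier by -0.308 z for Cdc34 and by -0.0135 z for Cdc16. After neighbour subtraction Cdc34 was at -0.19 and Cdc16 at -0.21, and among the arrays with lower numbers at -0.14 and -0.17. Without female replicate 2 of the 33-44 day mice, Cdc16 was at -0.20. Cenpu, part of the inner kinetochore, read -0.21, -0.63, -0.75, -1.27 and -1.26 at 33-44 days, against -0.39, -0.85, -0.43, -0.36 and -0.56 at 17-21 days. The 33-44 day mice held both the highest and the lowest value, and the difference of -0.34 z (SE 0.135, limma adjusted p = 0.278) was -0.075 after neighbour subtraction, -0.071 among the arrays with lower numbers and -0.20 without male replicate 3 of the 33-44 day mice.

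Of the 3 positive members, Orc2, a subunit of the origin recognition complex, read 1.66, 0.51, 0.59, 0.80 and 0.75 at 33-44 days, against 0.41, 0.30, 0.37, 0.30 and 0.56 at 17-21 days. The groups met only between 0.51 and 0.56, and male replicate 1 of the 33-44 day mice lay far above the rest. The difference was 0.43 z (limma adjusted p = 0.348), 0.47 after neighbour subtraction, 0.44 among the arrays with lower numbers, and 0.26 without male replicate 1 of the 33-44 day mice. Cdk5rap3 read -0.72, -0.89, -0.41, 0.19 and 0.13 at 33-44 days, against -0.83, -0.55, -0.82, -0.85 and -0.77 at 17-21 days, where the 2 high values were those of the arrays numbered 46 or above; the difference of 0.46 z became 0.16 among the arrays with lower numbers. Cdk12, a kinase of transcription, had a difference of 0.19 z over all arrays and of -0.018 z among those with lower numbers, and its other probe gave -0.034 z over all arrays.

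**Figure D2:**
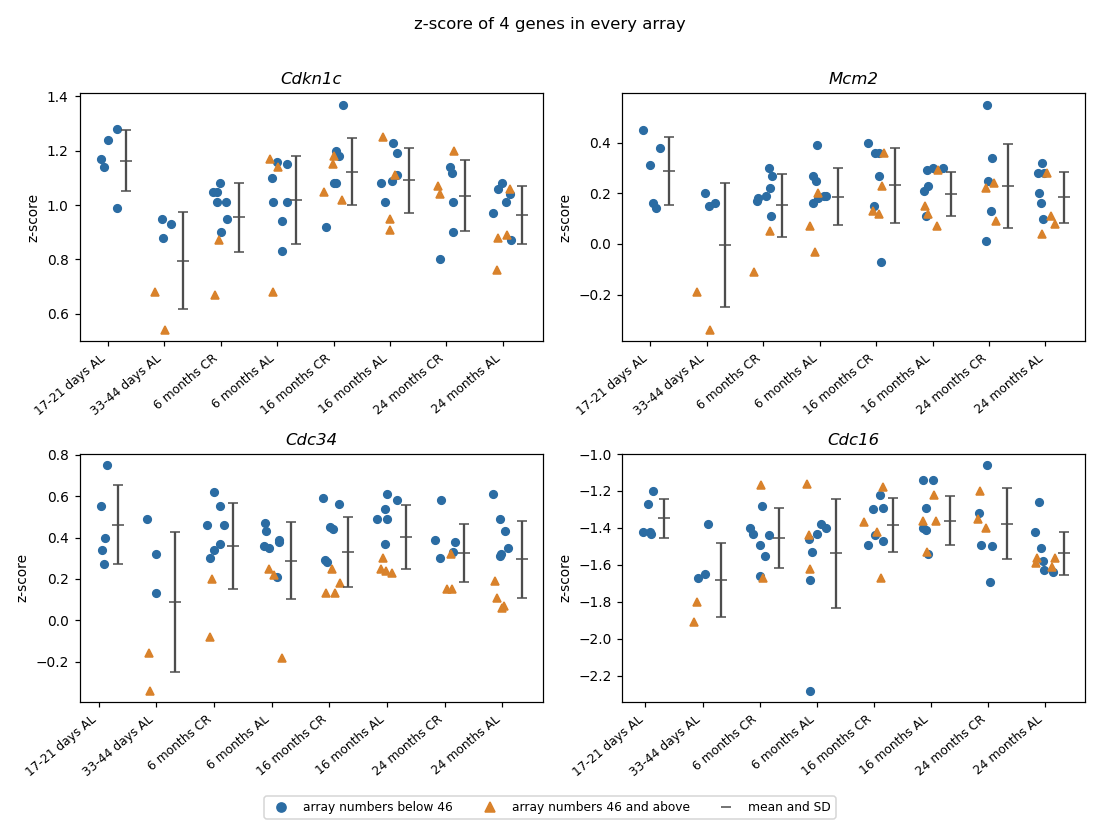
Z-scores of Cdkn1c, Mcm2, Cdc34 and Cdc16 in every array (y axis) for the 8 age and diet groups (x axis); circles are arrays numbered below 46, triangles those numbered 46 or above, and bars are the mean and SD. The 33-44 day triangles are the lowest points of that group in each panel, for Cdkn1c at 0.54 and 0.68, and the adult groups overlap both juvenile groups.

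The negative members lay together on the filter. Spots in rows 2 to 8 of each block, a range chosen after the values were seen, held 21 members, of which 18 had a negative difference (median -0.30 z) and 9 of the 10 negative members with unadjusted p under 0.05 lay there. All 2464 probes of these rows had a median of -0.19 z, with 84.6% negative. In the other rows, 35 of 49 members were positive (median 0.081 z), and the median of the 5984 probes there was 0.074 z. Subtraction of the neighbouring spots left medians of -0.078 z for the members and -0.058 z for all probes in rows 2 to 8. The part of spot position in these differences was not tested.

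**Figure D3:**
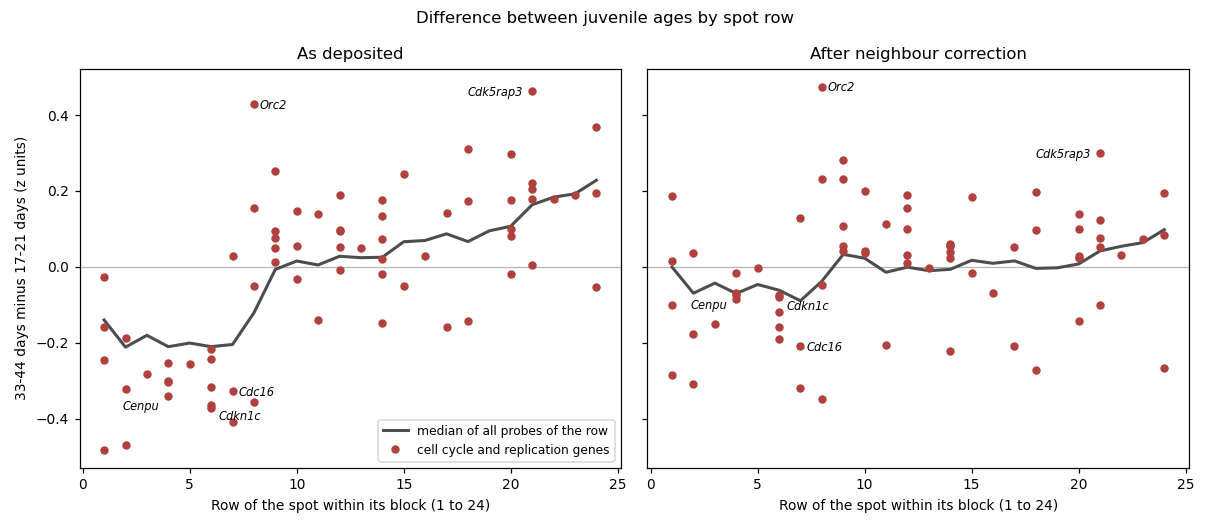
Difference of 33-44 minus 17-21 days AL in z units (y axis) by the row of the spot in its block (x axis), as deposited and after subtraction of neighbouring spots; points are the 70 members and the line is the median of all probes in a row. The members follow the line, which runs from -0.21 in row 2 to 0.23 in row 24 before subtraction.

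The calls at this step depended on single mice. Without male replicate 2 of the 33-44 day mice, 3 members passed (Mcm2, Cdkn1c and Cdc34, with 2.53% of all probes). Without female replicate 1 of the 33-44 day mice, 6 passed (Mcm2, Mcm4, Cdk5rap2, Cdkn1c, Cdc16 and Cdc34, with 5.22%), and without female replicate 2 of the 17-21 day mice only Cdkn1c did, with 0.852%. Red cell transcripts were measured over the same step: the summed z of the 5 measured of 8 red cell genes (Alas2, Hba-a1, Hba-x, Hbb-y, Slc4a1) ran from -1.38 to 0.48 at 33-44 days and from 0.30 to 0.89 at 17-21 days, so that the ranges overlapped, and 1 of the 5 passed. The part of red cell content in the members' differences was not tested.

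In adult AL mice (6, 16 and 24 months together) against 17-21 days, 32 members were positive and 38 negative, and 2 had an unadjusted p under 0.05, against 4.68% of all probes. Cenpu lay from -1.13 to -0.47 (median -0.78) on 30 adult arrays and read -0.39, -0.85, -0.43, -0.36 and -0.56 in the 5 pups, so that 28 of the 30 lay below the mean of the pups (difference -0.29 z, SE 0.103, limma adjusted p = 0.661). Cdk12 lay from -0.19 to 0.35 (median 0.04) in adults, against -0.34 to 0.01 in pups (difference 0.19 z, same adjusted p), but its other probe gave -0.18 z, the opposite sign. Cdkn1c lay from 0.68 to 1.25 (median 1.05) in adults and from 0.99 to 1.28 in pups, a difference of -0.14 z. Cdc42, a GTPase of the cytoskeleton, and Orc6 had differences of -0.18 and -0.20 z. The value for Cdc42 was -0.11 without male replicate 1 of the 17-21 day mice. All 5 pups were on arrays numbered below 46, while each adult AL group lay in both runs. The later run differed from the earlier by -0.22 z for Cenpu, -0.28 for Orc6 and -0.17 for Cdc42. For Cdkn1c that difference was -0.086 z and for Cdk12 0.13 z. The part of the run in the adult differences was not tested.

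Between 6 months and 33-44 days AL, 3 members had an unadjusted p under 0.05, against 5.31% of all probes. Cdkn1c lay from 0.68 to 1.17 (median 1.055) in the 10 mice of 6 months, of which 9 exceeded the mean of the 33-44 day mice, whose values ran from 0.54 to 0.95. The difference was 0.22 z (SE 0.078, limma adjusted p = 0.801), and 0.071 after neighbour subtraction. Mcm2 had a difference of 0.21 z, which was 0.084 without female replicate 2 of the 33-44 day mice. These comparisons share the 33-44 day mice with the juvenile step, so the opposite signs there are not separate evidence.

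Between 24 and 16 months AL, 27 members were positive and 43 negative (median -0.017 z, against -0.004 for all probes). The 6 members with unadjusted p under 0.05, against 6.57% of all probes (4.52% negative), were all negative: Cdk9, Cenpa, Anapc4, Cdc16, Cdkn1c and Poldip3. Of the 16 centromere and checkpoint genes 13 were negative, and the median of all 16 was -0.040 z. Only Cenpa among them had an unadjusted p under 0.05. Between 24 and 16 months CR, 6 of these 16 were positive and 10 negative. Positive and negative counts under AL were 4 and 7 for licensing, 1 and 5 for polymerase and 3 and 1 for cyclin genes. They were 6 and 5 for kinases, 1 and 2 for inhibitors, 5 and 4 for the APC/C and 4 and 6 for other Cdc genes. Over all probes 48.2% of the differences were positive. Cdk9, the kinase that releases paused RNA polymerase, lay from 0.03 to 0.45 (median 0.27) at 24 months and from 0.21 to 0.86 (median 0.43) at 16 months. The difference was -0.21 z (SE 0.077, 95% interval -0.37 to -0.059, limma adjusted p = 0.632), and the ranges overlapped. Without both near-identical arrays, each at 0.86, it was -0.12 z.

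Cenpa, the histone that marks the centromere, lay from 0.54 to 1.00 (median 0.855) at 24 months and from 0.70 to 1.27 (median 0.95) at 16 months. The ranges overlapped widely, and the difference of -0.16 z (SE 0.070, limma adjusted p = 0.670) was -0.15 without the near-identical arrays and -0.047 after neighbour subtraction. Anapc4, an APC/C subunit, lay from -1.02 to -0.59 (median -0.69) at 24 months and from -0.78 to -0.03 (median -0.60) at 16 months. Its difference of -0.24 z was -0.13 without the near-identical arrays, and its 2 other probes gave -0.030 and 0.082 z. Cdc16 had -0.20 z (-0.15 without the near-identical arrays) and Cdkn1c -0.13 z (-0.032 after neighbour subtraction). Poldip3, which binds a subunit of polymerase delta, had -0.17 z, and -0.039 z at its other probe. The most negative of all was Mcm8 at -0.57 z, with an interval of -1.23 to 0.088, and it was -0.051 without the near-identical arrays. With array cycle and run as blocks, 1.09% of all probes passed an adjusted p of 0.05, and no member did. The clamp loader genes disagreed between probes: the probe used for Rfc1 gave -0.089 z and the other 0.35 z (limma adjusted p = 0.607).

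**Figure D4:**
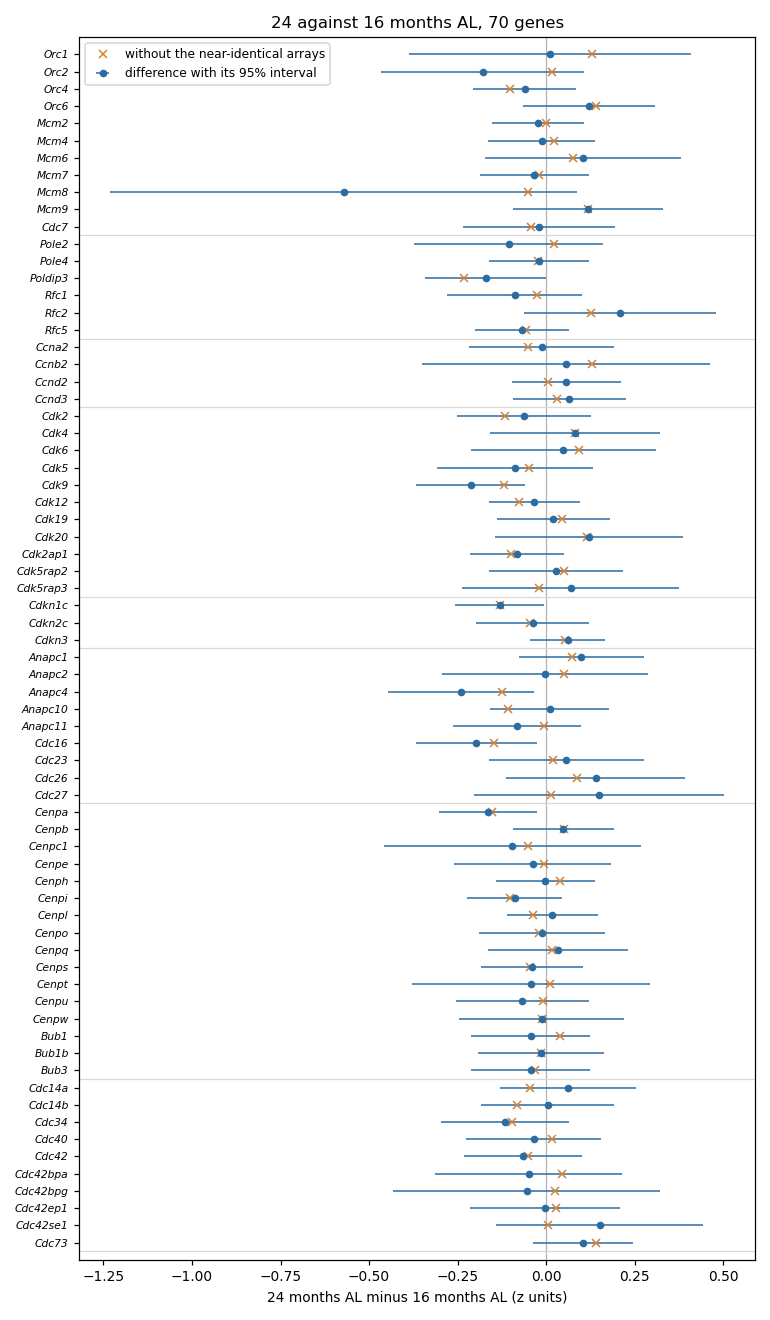
Difference of 24 minus 16 months AL for each of the 70 genes in z units (x axis), with 95% intervals from limma; crosses are the same difference without the near-identical arrays. The intervals of Cdk9, Cenpa, Anapc4, Cdc16, Cdkn1c and Poldip3 lie below 0, and Mcm8 has the widest interval and its cross lies near 0 (-0.051).

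The near-identical arrays stood apart in many members. They lay outside the range of the 8 other 16 month AL arrays in 24 of the 70 members, 13 above and 11 below, or 34.3%, against 28.1% of all probes. Mcm8 was 0.64 on each, against -2.45 to -1.32 on the 8 others. Orc2 averaged 1.525, against 0.06 to 0.90, and Pole2, a subunit of polymerase epsilon, 1.53, against 0.57 to 1.10. Among the other 65 arrays the highest Mcm8 value, 0.40, was on male replicate 1 of the 33-44 day mice, which also had the highest Orc2 of the series, 1.66. After neighbour subtraction and removal of group and run means, Mcm8 and Cdk9 correlated at r = 0.693 and Orc2 and Cdk9 at r = 0.660 over 67 arrays, values that include these arrays and are given as a description.

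**Figure D5:**
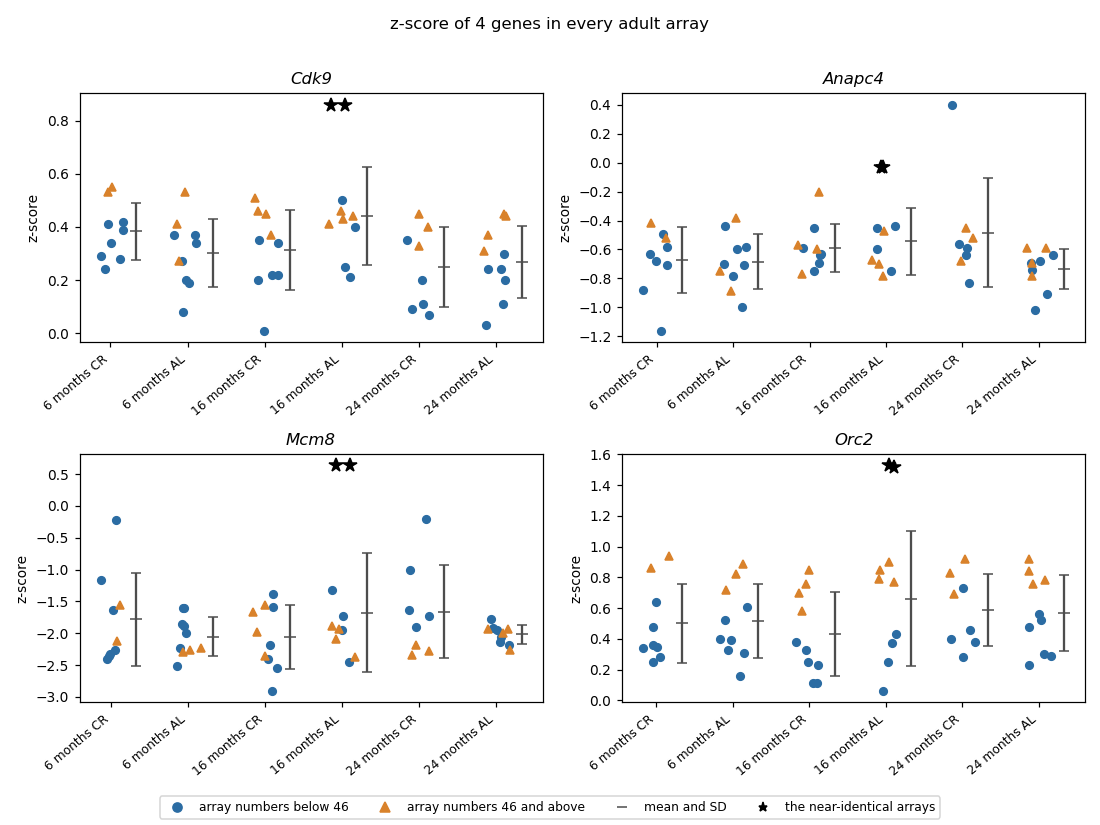
Z-scores of Cdk9, Anapc4, Mcm8 and Orc2 in every adult array (y axis) by age and diet (x axis, CR left of AL); stars are the near-identical arrays. The stars lie above every other 16 month AL array in each panel, for Mcm8 at 0.64 against -2.45 to -1.32.

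The other adult steps held less. Between 16 and 6 months AL, 40 members were positive and 30 negative, with 2 at unadjusted p under 0.05, against 3.04% of all probes. These were Cdk9 at 0.18 z (0.085 without the near-identical arrays) and Cdc16 at 0.20 z (0.12 without male replicate 2 of the 6 month AL mice, which read -2.28, against -1.68 to -1.16 in the other 9). Between 24 and 6 months AL, 37 were positive and 33 negative, and Cenpa alone had an unadjusted p under 0.05, against 2.89% of all probes (difference -0.155 z, limma adjusted p = 1), with 9 of 10 mice of 24 months below the mean of 6 months. Poldip3 came next at -0.15 z. Between 24 and 16 months under CR, 36 were positive and 34 negative, with 2 at unadjusted p under 0.05, against 4.15% of all probes. Cdc27, an APC/C subunit, lay from -1.66 to 0.50 (median -0.95) at 24 months CR and from -1.64 to -0.78 (median -1.42) at 16 months CR. The difference was 0.57 z (SE 0.191, limma adjusted p = 0.999), and 0.33 without male replicate 2 of the 24 month CR mice. Rfc5, a clamp loader subunit, had -0.19 z, and -0.026 after neighbour subtraction.

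The differences between CR and AL over the 3 adult ages ran from -0.099 z (Orc2) to 0.080 z (Cenph). Over the 3 adult ages, 36 members were positive and 34 negative (median 0.0022 z, against -0.00060 for all probes), and none had an unadjusted p under 0.05, against 0.71% of all probes. Cenph, a centromere protein, came first: it lay from -1.06 to -0.42 (median -0.73) in 27 CR mice and from -1.18 to -0.59 (median -0.825) in 30 AL arrays. The ranges overlapped almost wholly, 20 of 27 CR mice lay above the AL mean, and the difference was 0.080 z (SE 0.042, 95% interval -0.0038 to 0.16, limma adjusted p = 0.9999). Cdk12 (-0.062 z, and 0.056 z at its other probe), Cenpu (0.070 z), Cdk2ap1, a protein bound to Cdk2 (0.051 z), and Cdc16 (0.064 z, and 0.037 without male replicate 2 of the 6 month AL mice) followed, all with intervals that included 0. The 4 cyclins were all slightly negative, from -0.065 to -0.0017 z, where 49.5% of all probes had a positive difference.

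Within single ages, no member at 6 months had an unadjusted p under 0.05, against 0.462% of all probes, with Cenph at 0.14 z and Cdc73, a subunit of the Paf1 complex of transcription, at 0.12 z. At 16 months 2 did, against 1.03%: Orc2 at -0.32 z (-0.12 without the near-identical arrays) and Cdk9 at -0.17 z (-0.075 without them). At 24 months 3 did, against 1.04%. Cdc73 lay from -1.51 to -1.04 (median -1.205) under CR and from -1.21 to -0.88 (median -1.01) under AL. All 8 CR mice were below the AL mean, though the ranges overlapped, and the difference was -0.21 z (SE 0.076, limma adjusted p = 1), or -0.12 both after neighbour subtraction and among the arrays with lower numbers. Its sign was the opposite of that at 6 months, a change that was not tested. Anapc4 was at 0.29 z, and 0.12 without male replicate 1 of the 24 month CR mice, which read 0.40, against -0.83 to -0.45 in the other 7; its 2 other probes gave -0.063 and -0.075 z. Poldip3 was at 0.19 z, with 0.11 after neighbour subtraction and -0.045 z at its other probe. Tested directly, the age difference between 24 and 16 months differed between CR and AL in 2 members at unadjusted p under 0.05, against 0.888% of all probes. These were Anapc4 (0.39 z, and 0.22 without male replicate 1 of the 24 month CR mice) and Mcm8 (1.02 z, SE 0.484, limma adjusted p = 0.9995, and 0.49 without the near-identical arrays). Anapc4 was at 0.27 z without the near-identical arrays and at 0.095 z averaged over all its probes.

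In females against males of the AL adults, 34 members were positive and 36 negative. No member had an unadjusted p under 0.05, against 0.734% of all probes. Ccnd3, a G1 cyclin, came first, and lay from -0.24 to 0.29 (median 0.10) in 15 female arrays and from -0.29 to 0.27 (median -0.06) in 15 male arrays (difference 0.12 z, SE 0.065, 95% interval -0.010 to 0.25, limma adjusted p = 1). Cdc73 followed at -0.083 z. The difference between females and males in the difference of 24 against 16 months AL had no member at unadjusted p under 0.05 either, against 0.0947% of all probes. Poldip3 came first at -0.23 z (-0.14 without female replicate 5 of the 16 month AL mice), then Cdkn3 at -0.11 z (-0.055 without female replicate 4 of the 16 month AL mice).

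A selection modelled on the study's methods took few members. It asked for a mean z above 0, a minimum z ratio and an unadjusted p under 0.05, and that p came from each probe's own spread in the compared groups alone, so it differs from the limma p above and can fall under 0.05 where that one did not, as for Poldip3 and Ccnd3 here. It took Cdk9 and Cenpa between 24 and 16 months AL (2.04% of all probes), Cenpa and Poldip3 between 24 and 6 months AL (1.5%), and Rfc5 between 24 and 16 months CR (1.29%). It took Cdkn1c between 33-44 and 17-21 days (0.651%) and between 6 months and 33-44 days (0.639%), and Ccnd3 between females and males (0.592%).

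Members moved together about as often as other genes once the runs were taken into account. Over the 67 arrays, after group means alone were removed, 18.9% of the 2415 pairs of members had r above 0.5, against 15.8% of pairs of all genes. After group and run means were removed, 5.47% of member pairs did, against 5.71%, and after neighbour subtraction as well 1.99% did, against 2.69%. The closest pairs after subtraction were Cdkn3 with Anapc1 (r = 0.788), Rfc2 with Cdc26 (r = 0.768) and Anapc1 with Cdc26 (r = 0.733), of which only Anapc1 and Cdc26 belong to 1 complex, and all share the arrays and their processing. The APC/C subunit Cdc23 and the polymerase subunit Pole4 correlated at 0.828 before subtraction and at -0.215 after it. Probes of 1 gene did not always move together: the 2 probes of Cdc23 correlated at -0.536.

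Other genes of the division machinery, 37 measured of a list of 90 and 20 of them with a mean z above 0, gave no call in any comparison either. Between 33-44 and 17-21 days, 14 were positive and 23 negative. Nusap1, a spindle protein, had -0.455 z (limma adjusted p = 0.211, and -0.069 z with neighbour subtraction and blocks for array cycle and run) and Pttg1, securin, had -0.19 z. In adults against 17-21 days Pttg1 was also at -0.193 z (SE 0.060, limma adjusted p = 0.661). Between 24 and 16 months AL, 19 were positive and 18 negative, with Ncapd2, a condensin subunit, at -0.174 z (limma adjusted p = 0.607). Of the 37, 3 had an unadjusted limma p under 0.05 at the juvenile step, against 14% of all probes. Between 24 and 16 months AL 2 did, against 6.57%, and these genes were all negative. Under CR between 24 and 16 months, 4 positive and 1 negative gene did, against 4.15%.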

How the data were processed

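Total RNA of 67 cortices was radiolabelled as cDNA and hybridised to filter arrays with 1 channel, filter B of a mouse cDNA set. The deposited values are z-scores: the authors turned each array's spot intensities into a score with mean 0 and SD 1, and the arrays differ in neither. For the log base and the background step no value was found in the labels or methods, and depth has no counterpart on arrays, whose number limits the precision. 1 value of 8448 by 67 is missing.

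Groups were the 16 combinations of age, diet and sex in the labels. limma 3.58.1 (R 4.3.3) fitted the 16 group means over 67 arrays with no block, on z-scores and with no filter, and compared them in 14 two-sided contrasts that weight the sexes equally, with Benjamini-Hochberg adjustment over 8448 probes and a threshold of 0.05. Symbols came from the platform annotation: 4875 probes had 1 symbol, 224 several and 3349 none, and 86 probes gave the 70 members, 11 of which had several probes. Named genes were the members with the smallest p (5 or 2 a comparison), the 5 highest and 5 lowest mean z, and well-known members; Cdk5rap3, Orc2 at 33-44 days and others were added after their values were seen. The members and lists were chosen with earlier results of these data known. The neighbour subtraction assumed a layout of 22 columns and 24 rows in 16 blocks, inferred from the values, and used spots up to 2 away. Array cycle means the 5 passes through the groups in array order. Alternatives were quantile normalization, median centring, only the compared groups, array run and cycle as blocks, each run alone, neighbour subtraction, the mean over a gene's probes, each array left out, and a selection modelled on the study's methods (mean z above 0, z ratio of at least 1.5, and unadjusted p under 0.05 from a linear model of each probe over the compared groups, without limma's moderation; the analysis of variance that followed in the study was not run). Scripts were tested on simulated data.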

Additional observations from a re-analysis of the deposited data

Results flagged for a closer look

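In 87 groups of 4 to 10 arrays tested for a single distant value, 6 were flagged; chance flags about 1 group in 20. The near-identical arrays of 16 month AL mice, counted once, stood far above the 8 others for Cdk9 (0.86, against 0.21 to 0.50), Anapc4 (-0.03, against -0.78 to -0.44) and Mcm8 (0.64, against -2.45 to -1.32). Male replicate 2 of the 6 month AL mice stood far below the 9 others for Cdc16 (-2.28, against -1.68 to -1.16) and Cdk2ap1 (0.02, against 0.33 to 0.53). Male replicate 1 of the 24 month CR mice stood far above the 7 others for Anapc4 (0.40, against -0.83 to -0.45).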

How the results depend on the processing

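No paired analysis was possible because no animal or replicate number in the labels is shared between groups; the array cycle, read from the order of array numbers, was used as a block in its place. Over 40 pairs of a named gene and a comparison, 424 values under other settings kept their direction and their side of the threshold, 1 passed it and 4 changed sign, and of the values with 1 array left out 1038 kept both, 8 passed the threshold and 0 changed sign. The sign changes were Cenpu at 33-44 against 17-21 days (0.0148) and Cdkn1c in adults against 17-21 days (0.0276), both with neighbour subtraction and array cycle and run as blocks, Cdk9 for CR against AL at 16 months within the later run (0.0125) and Cdkn3 for the sex difference within the earlier run (0.0567); the cause was not tested. With the run as a block, 1 member (Cdkn1c) passed between 33-44 and 17-21 days, and with 1 array left out from 0 to 6 did. The selection modelled on the study's methods, which does not adjust p, took 2 members between 24 and 16 months AL (Cdk9, Cenpa), 2 between 24 and 6 months AL (Cenpa, Poldip3), 1 between 33-44 and 17-21 days (Cdkn1c), 1 between 6 months and 33-44 days (Cdkn1c), 1 between 24 and 16 months CR (Rfc5) and 1 between females and males (Ccnd3). In the other 8 comparisons it took 0. Median 95% half-widths of 0.271 z at the juvenile step and 0.188 z between adult ages describe the precision of a single member before adjustment.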

Other observations

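The promoter letters were also set against the juvenile step, a split chosen after the values were seen and given without a test. Of the 13 members whose promoter window held TTTGAA, 2 had a positive and 11 a negative difference between 33-44 and 17-21 days (median -0.16 z); of the 47 without it, 32 were positive and 15 negative (median 0.073 z). The 11 members with E2F letters had 7 positive and 4 negative differences (median 0.051 z), and the 49 without them 27 and 22 (median 0.021 z). With CCAAT, 19 of 31 were positive and 12 negative (median 0.076 z), and without it 15 and 14 of 29 (median 0.013 z). In adults against 17-21 days, 4 members with TTTGAA were positive and 9 negative, and 24 and 23 of the others. Between 24 and 16 months AL the 13 members with TTTGAA had 5 positive and 8 negative differences and the 47 others 18 and 29. Of the members with TTTGAA, Bub1b, Bub3, Ccnb2, Cdc40, Cdc42bpa, Cdk5rap2 and Mcm2 lay in spot rows 2 to 8. In those rows 84.6% of all probes were negative at the juvenile step. Cdc14a, Cdc7, Cdkn3, Cenpa, Cenpl and Cenpw lay in other rows. The part of spot position in the first of these splits was not tested.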
